A study of Mus musculus with 7 samples.

Results

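The ADAM genes encode membrane proteins with a disintegrin and a metalloprotease domain, and this account follows every ADAM probe set on arrays of mouse sperm RNA. Members were the probe sets whose only annotated symbol was Adam followed by a number and at most 1 letter, which leaves out the secreted Adamts relatives. The rule took no measured value and found 35 probe sets of 33 genes, of 22154 genes on 23493 probe sets with 1 symbol and of 33604 probe sets on the array. By their textbook expression, 20 were testis-restricted, 2 epididymal (Adam7 and Adam28), 5 broad (Adam9, Adam10, Adam17 and Adam15 with 2 probe sets) and 8 were of leukocytes, mesenchyme or brain (Adam8, Adam11, Adam12, Adam22, Adam23, Adam33 and Adam19 with 2 probe sets).

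The study held 7 arrays in 3 groups, all of sperm RNA and all of C57BL/6 descent. The group C57BL/6 was 1 array of a pool of 5 control males. TG3 was 3 arrays, each of 4 pooled males of generation 3 that carried a transgene for KDM1A, a histone lysine demethylase, in heterozygous form. nonTG3 was 3 arrays, each of 4 pooled littermates of that generation that did not carry it. The transgenic line began with microinjected C57BL/6 zygotes and was passed on by heterozygous males mated to C57BL/6 females, so TG3 and nonTG3 shared a transgenic ancestry that the C57BL/6 males lacked. TG3 and nonTG3 together are called the line below. The labels give neither the promoter of the transgene, nor the age of the males, nor whether a male gave sperm to several pools, and a p-value therefore measures spread between pools. With 1 C57BL/6 array, every comparison with that group assumes that its array varies like the 6 others.

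Spermatogenic cells make a large set of ADAMs, most of which no other tissue uses. They are made as precursors, folded and paired in the endoplasmic reticulum, cut during passage through the testis and epididymis, and carried to the sperm surface, where several lack protease activity and serve in adhesion. Adam2 and Adam3 are needed for sperm to enter the oviduct and bind the egg coat in mice. Adam10 and Adam17, in contrast, are active proteases in nearly all cells that release the outer part of membrane proteins such as Notch receptors and tumour necrosis factor.

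RefSeq promoters (assembly GRCm38.p6) were found for 17 of the 33 genes, as 19 promoters, and the 250 bases before each start site were read. Pairs of neighbouring testis genes and, for contrast, the broad genes Adam10 and Adam17 are printed, because Adam1b and Adam6b were called lower below and their partners were not, Adam25 and Adam20 are close copies that were both called, and the broad genes stand for the other class. Each sequence runs 5′ to 3′ on the gene's strand, and capitals mark CpG dinucleotides, the sites of DNA methylation. Adam1b lies at chr5:121503436-121503685 (minus strand) and Adam1a at chr5:121521696-121521945 (minus strand). Adam6b lies at chr12:113489315-113489564 and Adam6a at chr12:113543658-113543907, both on the plus strand. Adam25 lies at chr8:40751958-40752207 and Adam20 at chr8:40793023-40793272, both on the plus strand. Adam10 lies at chr9:70678732-70678981 (plus strand) and Adam17 at chr12:21373633-21373882 (minus strand).
Adam1b: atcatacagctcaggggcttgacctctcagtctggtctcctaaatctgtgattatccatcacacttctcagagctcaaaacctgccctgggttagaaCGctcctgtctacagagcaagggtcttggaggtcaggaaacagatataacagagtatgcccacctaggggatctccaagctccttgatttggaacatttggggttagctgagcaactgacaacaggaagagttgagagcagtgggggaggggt
Adam1a: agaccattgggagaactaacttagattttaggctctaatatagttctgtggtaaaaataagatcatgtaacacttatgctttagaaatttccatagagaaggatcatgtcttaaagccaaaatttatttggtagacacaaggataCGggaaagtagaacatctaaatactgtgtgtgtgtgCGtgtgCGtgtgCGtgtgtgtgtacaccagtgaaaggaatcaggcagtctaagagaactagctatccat
Adam6b: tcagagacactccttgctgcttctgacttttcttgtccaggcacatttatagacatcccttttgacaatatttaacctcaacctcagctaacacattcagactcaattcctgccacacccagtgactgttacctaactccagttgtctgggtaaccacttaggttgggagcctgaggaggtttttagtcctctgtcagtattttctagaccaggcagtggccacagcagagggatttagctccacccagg
Adam6a: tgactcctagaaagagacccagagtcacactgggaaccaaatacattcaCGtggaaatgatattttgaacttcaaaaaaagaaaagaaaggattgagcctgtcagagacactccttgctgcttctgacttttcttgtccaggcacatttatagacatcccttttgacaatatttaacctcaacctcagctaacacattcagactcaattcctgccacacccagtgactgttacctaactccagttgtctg
Adam25: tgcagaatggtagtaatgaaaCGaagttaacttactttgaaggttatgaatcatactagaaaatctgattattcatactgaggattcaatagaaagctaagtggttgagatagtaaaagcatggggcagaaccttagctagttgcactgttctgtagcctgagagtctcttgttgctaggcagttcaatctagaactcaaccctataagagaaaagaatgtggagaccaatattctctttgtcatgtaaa
Adam20: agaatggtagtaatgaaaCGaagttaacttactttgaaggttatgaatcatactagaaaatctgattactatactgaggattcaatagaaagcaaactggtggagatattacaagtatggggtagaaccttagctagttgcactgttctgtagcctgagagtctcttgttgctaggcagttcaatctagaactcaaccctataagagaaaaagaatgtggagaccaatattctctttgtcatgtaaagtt
Adam10: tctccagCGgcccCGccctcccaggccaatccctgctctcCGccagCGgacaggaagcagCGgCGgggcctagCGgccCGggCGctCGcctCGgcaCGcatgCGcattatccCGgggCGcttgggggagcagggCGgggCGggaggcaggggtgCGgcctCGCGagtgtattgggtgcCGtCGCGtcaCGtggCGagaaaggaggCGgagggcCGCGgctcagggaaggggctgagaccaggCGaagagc
Adam17: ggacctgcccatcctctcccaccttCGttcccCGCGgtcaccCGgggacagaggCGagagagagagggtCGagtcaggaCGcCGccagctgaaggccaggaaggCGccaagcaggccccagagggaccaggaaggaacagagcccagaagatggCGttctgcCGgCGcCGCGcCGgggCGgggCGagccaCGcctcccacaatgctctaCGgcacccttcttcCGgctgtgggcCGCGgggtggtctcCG

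The promoters of the classes differed in base composition. The 10 testis-restricted promoters held 0 to 4 CpG (median 1), against a median of 6 over all 32851 promoters of that table. The broad genes with a promoter held 18 (Adam15), 23 (Adam17) and 29 (Adam10) CpG, and Adam9 had none in that table. Of all promoters, 44.4% held 4 or fewer CpG and 21.7% held 18 or more. The 6 promoters of 4 genes of the leukocyte, mesenchyme or brain class held 4 to 27 (median 6.5). The median GC content was 37.8% in the testis-restricted class, 70.4% in the broad class and 52.4% over all promoters. Within the testis-restricted class, CpG number overlapped between 5 genes whose RNA was called lower in the line (0 to 1) and 5 that were not called (0 to 4). The 5 called genes were Adam1b, Adam6b, Adam25, Adam20 and Adam29, all with a line mean below the lowest array median (3.52). The other called genes, Adam2, Adam3, Adam5, Adam18, Adam24, Adam26a and Adam32, had no promoter in that table, so these values do not cover them. The cAMP response element TGACGTCA, searched on both strands, was in 0 of the 19 ADAM promoters and in 1.55% of all promoters. Its partial form TGACG, also counted inside the whole element, was in 1 (Adam10) and in 17.8% of all, and the TATA box letters TATAAA were in 1 (Adam29) and in 7.59% of all. Such matches describe letters in this window alone. The promoters of Adam25 and Adam20 were identical over 93.7% of aligned columns, and those of Adam1b and Adam1a over 51.4%, with no shared run over 7 bases. Those of Adam6b and Adam6a shared an unbroken run of 149 bases at different distances from the start sites, which gave 42.5% in an end-to-end alignment.

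Array medians lay between 3.52 and 3.61 on the log2 scale. A reading below 3.52 is called dim here, since whether it lay above background was not measured, and no fold is given for a gene whose line mean is dim. The labelled sperm identity was checked against 11 markers of condensing spermatids, whose mean was 10.44 in C57BL/6 and 9.72 to 10.02 in the line. Among them Smcp, of the mitochondrial capsule, read 11.88 in C57BL/6 and 11.80 on average in the line, while Tnp1, a transition protein, read 12.40 and 9.51 and Prm1, a protamine, 11.64 and 10.19, and the last 2 were called lower. Kdm1a, the mouse gene of the protein the transgene encodes, read 5.64 in C57BL/6, 5.06, 5.27 and 5.27 in TG3 and 5.07, 5.27 and 5.27 in nonTG3. Its TG3 minus nonTG3 difference was 0 (limma adjusted p = 1), and the labels do not say whether its probes detect the transgene. Mitochondrial RNA varied between arrays. The mean of 10 mitochondrially encoded genes was 8.80 in TG3 replicate 1, 8.91 in nonTG3 replicate 3 and 9.98 in nonTG3 replicate 2. The rest of the line read 11.44 to 11.55 and C57BL/6 read 11.24. The first 2, the lowest, are called the arrays of low mitochondrial RNA below. That choice leaves out nonTG3 replicate 2, which was also below the rest of the line.

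**Figure D1:**
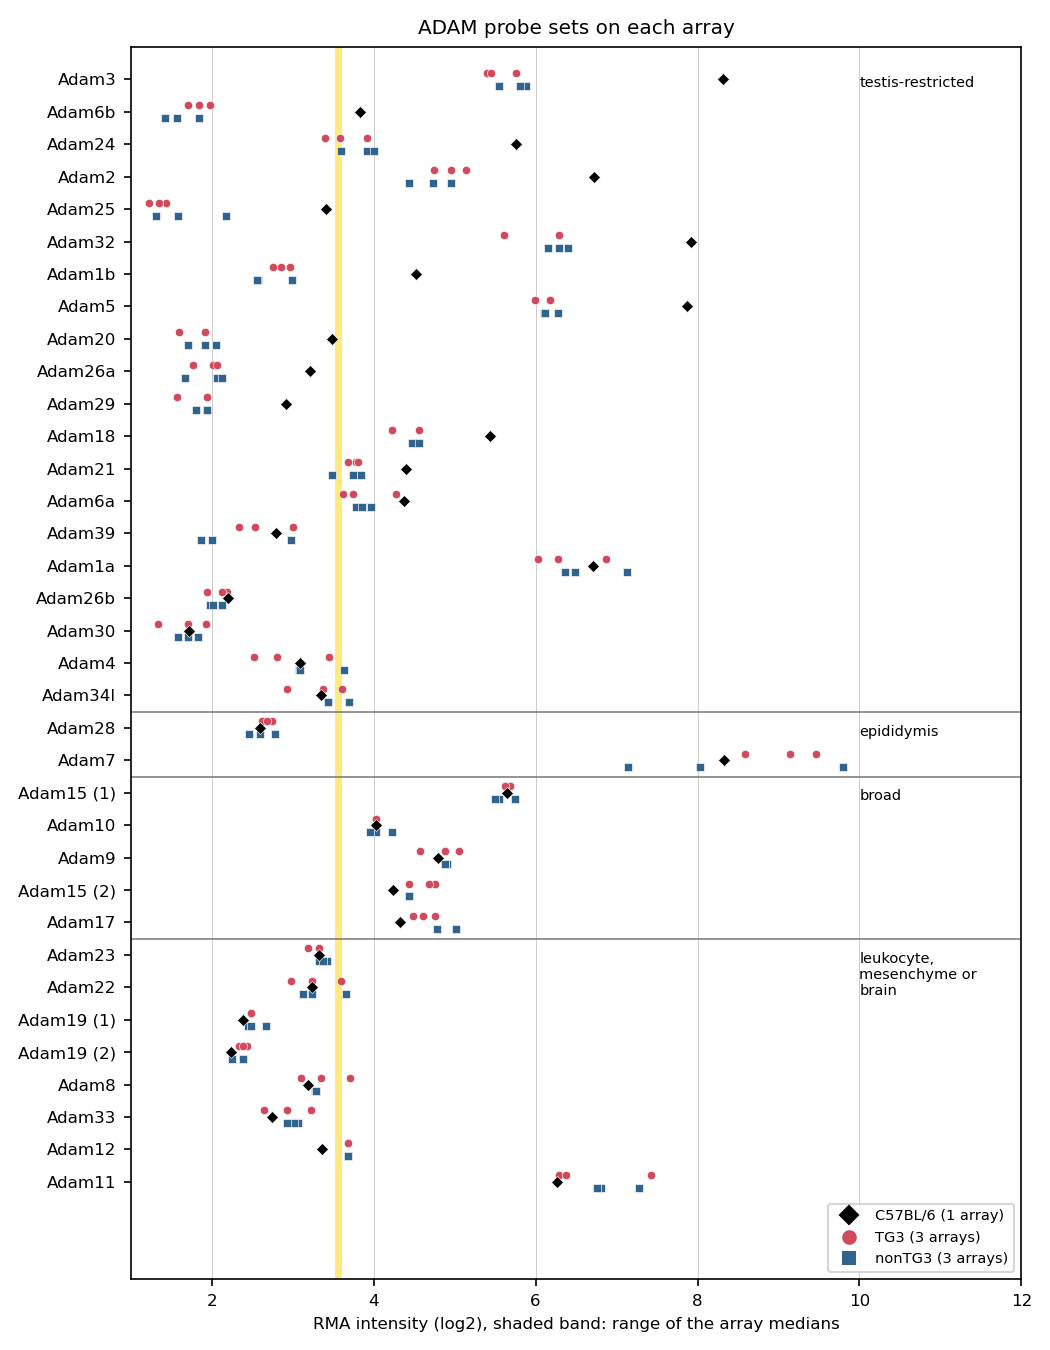
RMA intensity (log2, horizontal axis) of the 35 ADAM probe sets on each of the 7 arrays, by class; diamonds are the C57BL/6 array, circles the 3 TG3 arrays, squares the 3 nonTG3 arrays, and the shaded band spans the array medians (3.52 to 3.61). In 15 testis-restricted probe sets the diamond lies to the right of all 6 arrays of the line, and in the other classes it does so in none.

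In sperm of the line, RNA of 12 testis-restricted ADAMs was lower than in C57BL/6 sperm, by 2.02-fold to 6.40-fold in the 6 that were not dim, and no broad ADAM was called. Of the 35 members, 12 were called lower and 0 higher at an adjusted p under 0.05 (limma, Benjamini-Hochberg over all 23493 probe sets), against 2.85% of all probe sets lower, 0.170% higher and 3.02% in either direction. All 12 were among the 20 testis-restricted members, and 0 of the 15 others were called. The classes were set with earlier results of these data known, so that this contrast is a description. The median line minus C57BL/6 difference was -1.159 (log2) over the 20 testis-restricted members, 0.123 over the 15 others and 0.037 over all probe sets tested. Bulk RNA cannot tell fewer cells of a type from less RNA per cell.

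Adam3 (cyritestin), the sperm protein on which egg-coat binding depends in mice, read 8.32 in C57BL/6, 5.40, 5.76 and 5.45 in TG3, and 5.88, 5.55 and 5.81 in nonTG3. The groups of the line overlapped each other, and all 6 arrays lay more than 2 log2 units below C57BL/6. Its line mean was 5.64 ± 0.20 (SD, n = 6), a difference of -2.68 (SE 0.19, limma adjusted p = 0.00368), or 6.40-fold lower. Adam2 (fertilin beta), the partner that forms complexes with several other sperm ADAMs, read 6.72 in C57BL/6, 4.95, 5.14 and 4.74 in TG3, and 4.73, 4.44 and 4.95 in nonTG3. Its line mean of 4.83 ± 0.24 (SD, n = 6) was 3.73-fold lower (log2 difference -1.90, SE 0.23, limma adjusted p = 0.0154).

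Adam5, a testis ADAM of the same chromosomal run as Adam3, read 7.87 in C57BL/6, 6.18, 6.18 and 5.99 in TG3, and 6.10, 6.11 and 6.28 in nonTG3. It was the least variable of the bright called members, with a line mean of 6.14 ± 0.10 (SD, n = 6), 3.31-fold lower (-1.73, SE 0.13, limma adjusted p = 0.00434). Adam32, another member of that run, read 7.92 in C57BL/6, 6.29, 6.29 and 5.61 in TG3, and 6.15, 6.29 and 6.40 in nonTG3. All 6 arrays were again below C57BL/6, with TG3 replicate 3 the lowest, and the line mean of 6.17 ± 0.29 (SD, n = 6) was 3.37-fold lower (-1.75, SE 0.28, limma adjusted p = 0.0377). Adam18 (tMDC III) read 5.44 in C57BL/6, 4.56, 4.23 and 4.22 in TG3, and 4.51, 4.47 and 4.56 in nonTG3. Its line mean of 4.43 ± 0.16 (SD, n = 6) was 2.02-fold lower (-1.02, SE 0.15, limma adjusted p = 0.0314), the smallest difference among the 12. Adam24 (testase 1), a protease of mature sperm, read 5.76 in C57BL/6, 3.40, 3.58 and 3.92 in TG3, and 3.92, 4.00 and 3.59 in nonTG3. Its line mean of 3.74 ± 0.24 (SD, n = 6) lay close to the array medians and was 4.06-fold lower (-2.02, SE 0.24, limma adjusted p = 0.0147).

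The other 6 called members were dim in the line. Adam1b, the fertilin alpha that pairs with Adam2 on the sperm surface, read 4.52 in C57BL/6, 2.85, 2.96 and 2.76 in TG3, and 2.57, 2.99 and 2.56 in nonTG3. Adam6b, one of a pair of testis genes that lie within the immunoglobulin heavy-chain locus, read 3.83 in C57BL/6, 1.98, 1.84 and 1.70 in TG3, and 1.84, 1.42 and 1.57 in nonTG3. These 2 genes read above the array medians in C57BL/6 and dim on all 6 arrays of the line, with log2 differences of -1.74 (SE 0.19, limma adjusted p = 0.0126) and -2.11 (SE 0.19, limma adjusted p = 0.00618). Adam25 (testase 2) read 3.41 in C57BL/6, 1.44, 1.22 and 1.35 in TG3, and 1.58, 1.31 and 2.17 in nonTG3. Adam20 read 3.48 in C57BL/6, 1.91, 1.59 and 1.91 in TG3, and 2.05, 1.71 and 1.91 in nonTG3. Both were dim on all 7 arrays, and whether their probe sets tell the RNAs of these close copies apart was not tested. Adam26a (testase 3) read 3.21 in C57BL/6, 1.77, 2.02 and 2.07 in TG3, and 1.67, 2.07 and 2.13 in nonTG3. Adam29 read 2.92 in C57BL/6, 1.94, 1.57 and 1.94 in TG3, and 1.81, 1.94 and 1.94 in nonTG3. These 4 differences ran from -1.90 (Adam25, adjusted p = 0.0385) and -1.63 (Adam20, adjusted p = 0.0128) to -1.25 (Adam26a, adjusted p = 0.0442) and -1.06 (Adam29, adjusted p = 0.0388) in the limma fit.

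Not every call survived the loss of 1 array. Refitted without each array of the line in turn, Adam3, Adam5, Adam6b, Adam20 and Adam1b stayed called in all 6 fits (limma adjusted p up to 0.0498, for Adam20). Adam20 was dim on all 7 arrays and gave 4 different readings on the 6 arrays of the line. Adam32 gave 4 and Adam29 gave 3, so that the spread of these 3 called genes is not a full measure of their error. Adam2 was lost without TG3 replicate 1 or nonTG3 replicate 1 (adjusted p up to 0.0559), and Adam24 without TG3 replicate 2, nonTG3 replicate 1 or nonTG3 replicate 2 (up to 0.0583). The other 5 were each lost in 5 of 6 fits: Adam32 stayed called without TG3 replicate 3 alone (adjusted p up to 0.121), Adam18 without TG3 replicate 1 (up to 0.10), Adam25 without nonTG3 replicate 3 (up to 0.112), Adam26a without nonTG3 replicate 1 (up to 0.114), and Adam29 without TG3 replicate 2 (up to 0.113). The count of called members was 7 without TG3 replicate 1 or 2, 6 without nonTG3 replicate 1 or 2, and 8 without TG3 replicate 3 or nonTG3 replicate 3. The differences themselves moved little, that of Adam3 between -2.73 and -2.63 and that of Adam18 between -1.07 and -0.99. Without both arrays of low mitochondrial RNA, 0 of 23493 probe sets were called in any direction by limma, members included. The smallest member adjusted p was then 0.0778, 17 members had an unadjusted p under 0.05, and the differences were as large (Adam3 -2.66, Adam2 -1.96, Adam5 -1.77, Adam18 -1.08).

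**Figure D2:**
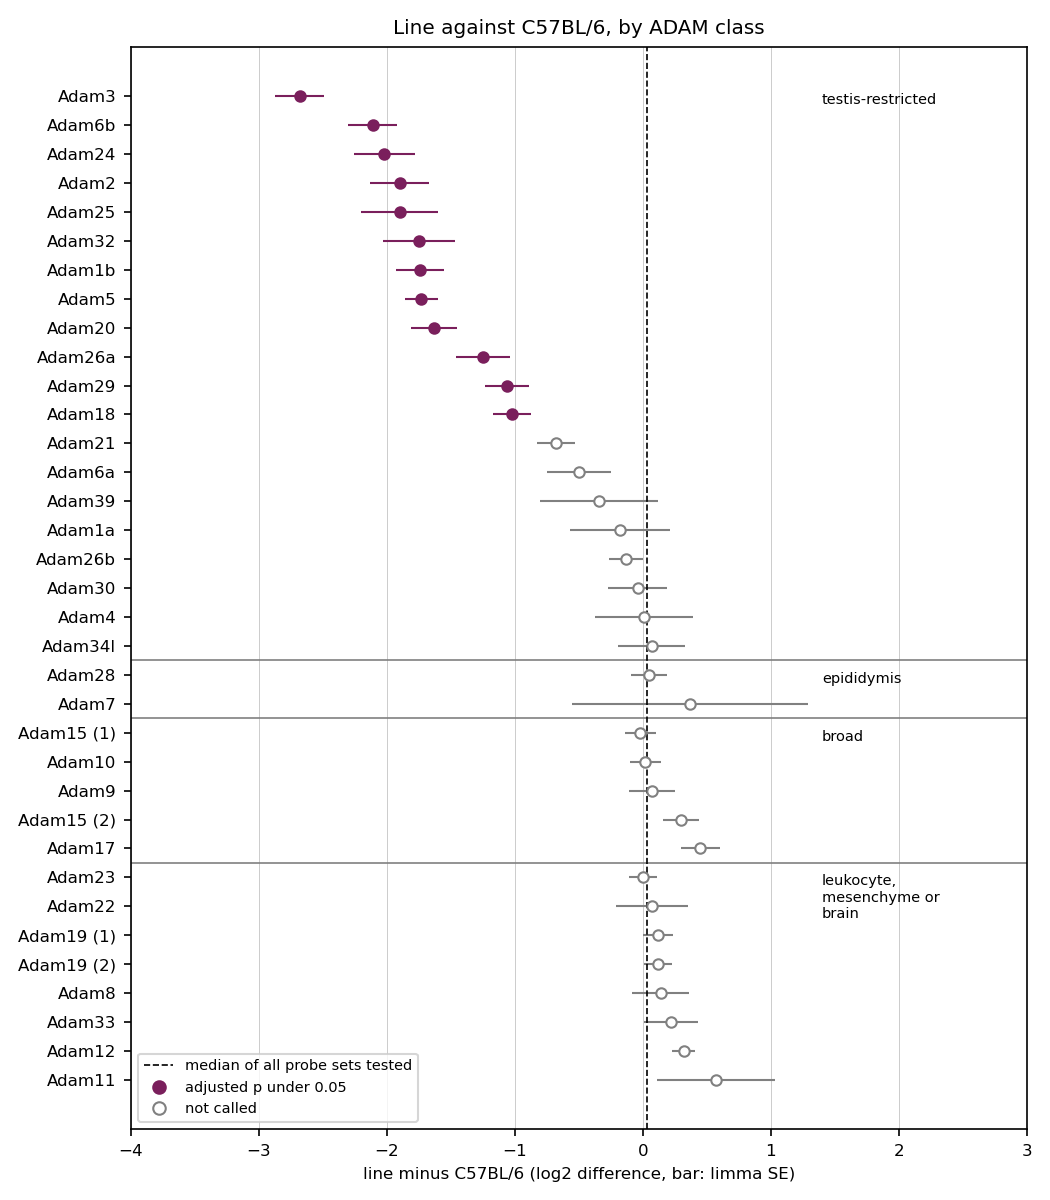
Line minus C57BL/6 difference (log2, horizontal axis; bars are the limma standard error) of each ADAM probe set, by class; filled points have an adjusted p under 0.05, and the dashed line is the median of all probe sets tested (0.037). The 12 filled points lie between -2.68 and -1.02 in the testis-restricted block, and the points of the other classes lie between -0.02 and 0.57.

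The remaining 8 of the 20 testis-restricted members were not called. Adam1a, the fertilin alpha that stays inside spermatogenic cells and is needed for Adam3 to reach the sperm surface, read 6.71 in C57BL/6, 6.87, 6.28 and 6.03 in TG3, and 6.36, 6.49 and 7.13 in nonTG3. The C57BL/6 array lay within the range of the line (difference -0.18, limma adjusted p = 1.00). Adam6a read 4.38 in C57BL/6, 3.75, 3.62 and 4.28 in TG3, and 3.78, 3.85 and 3.97 in nonTG3, a difference of -0.50 (adjusted p = 0.557). Adam21 read 4.40 in C57BL/6 and between 3.49 and 3.84 across the line, which is a difference of -0.68 (limma adjusted p = 0.104). These 2 genes were below C57BL/6 on all 6 arrays of the line without passing the test. Adam34l (3.35 in C57BL/6, 2.93 to 3.69 in the line), Adam4 (3.09, and 2.52 to 3.63), Adam39 (2.79, and 1.87 to 3.00), Adam26b (2.20, and 1.94 to 2.19) and Adam30 (1.72, and 1.33 to 1.93) averaged dim in both. In all, the C57BL/6 array lay above all 6 arrays of the line in 15 of the 20 testis-restricted members, in 0 of the 15 others, and in 14.3% of all probe sets. It lay below all 6 in 6 members, none testis-restricted, against 18.2% of all probe sets.

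Runs of neighbouring ADAM genes held called and uncalled members. By RefSeq gene order, counting protein-coding genes, Adam18, Adam3, Adam5, Adam32 and Adam9 follow each other with 0 genes between them. The 4 testis genes of that run were called lower, and Adam9 (meltrin gamma), a broad sheddase, read 4.79 in C57BL/6, 5.05, 4.88 and 4.57 in TG3, and 4.90, 4.88 and 4.88 in nonTG3 (difference 0.07, limma adjusted p = 1.00). In the run Adam24, Adam25, Adam20 and Adam39, 3 were called and Adam39 was not. In the run of Adam26b, Adam26a, Adam34l and Adam34, Adam26a alone of the 3 members was called. Adam34 is no member because its probe sets also name another gene. The pairs Adam1b and Adam1a, and Adam6b and Adam6a, each had 1 called member, while Adam4 and Adam21, with 1 gene between them, had 0, as did Adam7 and Adam28, also with 1 between. Whether the probe sets of Adam6a and Adam6b, or of Adam26a and Adam26b, tell the RNAs of the pair apart was not tested.

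For Adam32 and Adam9, the neighbours of which neither was dim, the log2 ratio of Adam32 to Adam9 within an array was lower than in C57BL/6 on all 6 arrays of the line, by 1.82 on average. The pair was chosen with the calls of both genes known, so that this direction is a description with no test. Adam1b, Adam6b, Adam26a, Adam26b and Adam39 were dim in the line, and no ratio is given for their pairs.

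**Figure D3:**
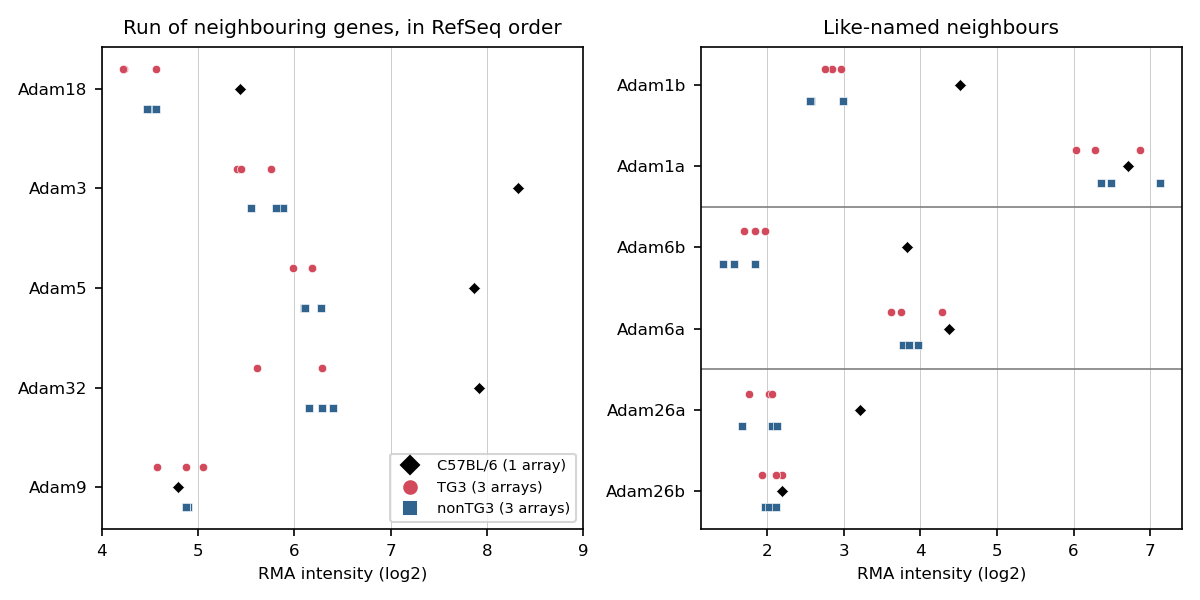
RMA intensity (log2, horizontal axis) on each array for the run of neighbouring genes from Adam18 to Adam9 (left) and for 3 like-named pairs (right); diamonds are C57BL/6, circles TG3 and squares nonTG3. The diamond stands to the right of the line in Adam18, Adam3, Adam5 and Adam32 and within it in Adam9, and it stands apart in Adam1b, Adam6b and Adam26a more than in their partners.

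The broad ADAMs showed no called difference in the line, 0 of 5 probe sets against 3.02% of all probe sets in either direction. A count of 0 in a class of this size is close to that share and does not set the class apart. Adam10, the main alpha-secretase and a Notch sheddase, read 4.03 in C57BL/6, 4.03, 4.03 and 4.03 in TG3, and 4.22, 4.03 and 3.96 in nonTG3. Its line mean of 4.05 ± 0.09 (SD, n = 6) differed by 0.02 from C57BL/6 (limma adjusted p = 1.00). Equal readings on several arrays come from the summary step of RMA, so that the spread of Adam10 is not a full measure of its error. Adam17, the sheddase of tumour necrosis factor, read 4.33 in C57BL/6, 4.76, 4.61 and 4.48 in TG3, and 5.02, 4.78 and 5.02 in nonTG3. All 6 arrays of the line were above C57BL/6, by 0.45 on average (SE 0.15, limma adjusted p = 0.295). Adam15 (metargidin) had 2 probe sets: one read 5.65 in C57BL/6 and 5.50 to 5.74 in the line (difference -0.02), and the other 4.24 and 4.44 to 4.76 (difference 0.30, adjusted p = 0.503). They differed in whether C57BL/6 lay within the line's range, and neither was called. In 10 of the 35 members the 6 arrays of the line gave at most 4 different readings, as they did in 7267 of all 23493 probe sets, a similar share.

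Adam7, which the epididymal epithelium makes and hands to passing sperm, was the most variable member. It read 8.33 in C57BL/6, 8.59, 9.46 and 9.14 in TG3, and 9.80, 8.03 and 7.14 in nonTG3, with a line mean of 8.69 ± 0.99 (SD, n = 6). The difference from C57BL/6 was 0.37 (SE 0.92, limma adjusted p = 1.00), well inside that spread. Spink8, a nonmember gene of the epididymis, read 10.72, 10.66 and 11.00 in TG3 and 10.92, 9.01 and 9.66 in nonTG3. For both Adam7 and Spink8, nonTG3 replicates 2 and 3 were the 2 lowest arrays of the line. Not every epididymal marker shared this order. Within the line Lcn8, which was dim, read highest in nonTG3 replicate 2 (3.25), and Defb48 read lowest in TG3 replicate 1 (4.85). The mean of 18 epididymal marker genes was also lowest on these arrays, 4.41 and 4.44, against 4.75 to 4.93 on the other 4, and its part in the readings of Adam7 was not tested. Adam28, the other epididymal member, read 2.60 in C57BL/6 and 2.46 to 2.78 in the line, dim throughout.

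Among the 8 probe sets of leukocyte, mesenchyme or brain ADAMs, 0 were called, against 3.02% of all probe sets. Their median difference was 0.134. Adam11, a brain ADAM without protease activity, read 6.26 in C57BL/6, 7.43, 6.29 and 6.37 in TG3, and 6.81, 6.76 and 7.28 in nonTG3. The line lay above C57BL/6 on all 6 arrays, but by as little as 0.03 and with a wide spread (difference 0.57, adjusted p = 0.875). Adam12 (meltrin alpha, of muscle and bone) read 3.36 in C57BL/6 and 3.68 on each of the 6 arrays of the line. Its difference of 0.32 (limma adjusted p = 0.179) rests on a single repeated value. Adam8, a leukocyte ADAM, read 3.19 in C57BL/6 and averaged 3.34 ± 0.20 (SD, n = 6) across the line, and Adam23 read 3.33 in C57BL/6 and 3.19 to 3.42 in the line. Adam22 (a brain receptor of Lgi1), Adam33 and both probe sets of Adam19 (meltrin beta) averaged dim in both, and each of the 2 probe sets of Adam19 lay above C57BL/6 on all 6 arrays of the line, by 0.12 on average.

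Carriers of the transgene and their littermates were not told apart by any ADAM. For TG3 against nonTG3, 0 of 35 members were called in either direction (limma), as were 0% of all 23493 probe sets. At an unadjusted p under 0.05, 1 member and 559 of all probe sets passed. That member was Adam17, whose TG3 arrays all lay below its nonTG3 arrays (difference -0.33, SE 0.12, limma adjusted p = 0.923). It was the only member whose groups did not overlap, against 1.65% of all probe sets with TG3 all below and 2.47% with TG3 all above. Its two-sided exact permutation p was 0.1, the smallest that 3 against 3 arrays can give. For the 4 sperm-surface members that the class comparison names, the TG3 minus nonTG3 difference was -0.21 in Adam3 (exact permutation p = 0.2), 0.24 in Adam2 (p = 0.3), -0.05 in Adam5 (p = 0.6) and -0.18 in Adam18 (p = 0.3). Adam10 differed by -0.04 (exact permutation p = 1). The median difference was -0.065 over the testis-restricted class, -0.039 over the broad class, 0.405 over the 2 epididymal members, -0.063 over the leukocyte, mesenchyme or brain class and 0.005 over all probe sets.

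Set against the same C57BL/6 array, which they share, TG3 had 11 members called lower and nonTG3 had 7, with 0 higher in each. Over all probe sets 2.41% were called lower and 0.119% higher in TG3 (2.53% in either direction), and 2.43% lower and 0.0936% higher in nonTG3 (2.53%). The 7 of nonTG3 were Adam1b, Adam2, Adam20, Adam24, Adam3, Adam5 and Adam6b, and all were among the 11 of TG3. Adam18, Adam25, Adam29 and Adam32 were called in TG3 alone under this setting, and the test of the difference between carriers and littermates called none of them. The median difference of the testis-restricted class was -1.18 in TG3 and -1.139 in nonTG3. For Adam3 the difference from C57BL/6 was -2.78 in TG3 and -2.57 in nonTG3, for Adam5 -1.75 and -1.7, and for Adam25 -2.07 and -1.72. Without 1 array, the count was 3 to 6 in TG3 (fewest without TG3 replicate 2) and 3 to 7 in nonTG3 (fewest without nonTG3 replicate 1), and fitted on the groups compared alone it was 0 in both. With quantile normalization repeated, cyclic loess or array weights nonTG3 had 11, 12 and 12 called members and TG3 had 11, 12 and 12, so that the gap of 11 to 7 was not seen there.

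A share of the members close to that of all probe sets followed the arrays of low mitochondrial RNA. In 5 of 35 members, Adam11, Adam22, Adam1a, Adam39 and Adam18, TG3 replicate 1 and nonTG3 replicate 3, which had the least mitochondrial RNA, both read above the other 4 arrays of the line, in Adam18 only narrowly (4.56 on each, against at most 4.51) and beside its larger difference from C57BL/6. Over all probe sets 13.9% had both arrays above the other 4, and 9.93% had both below, against 0 members. On these arrays the mean of 16 fibroblast, muscle and vessel markers was also raised, at 5.47 and 5.27, against 4.35 to 4.73 on the other 4. Adam1a read 6.87 and 7.13 there and 6.03 to 6.49 on the others, and Adam11 read 7.43 and 7.28 against 6.29 to 6.81. Adam3 showed no such split. The part of RNA quality or of other cells in these readings was not tested.

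**Figure D4:**
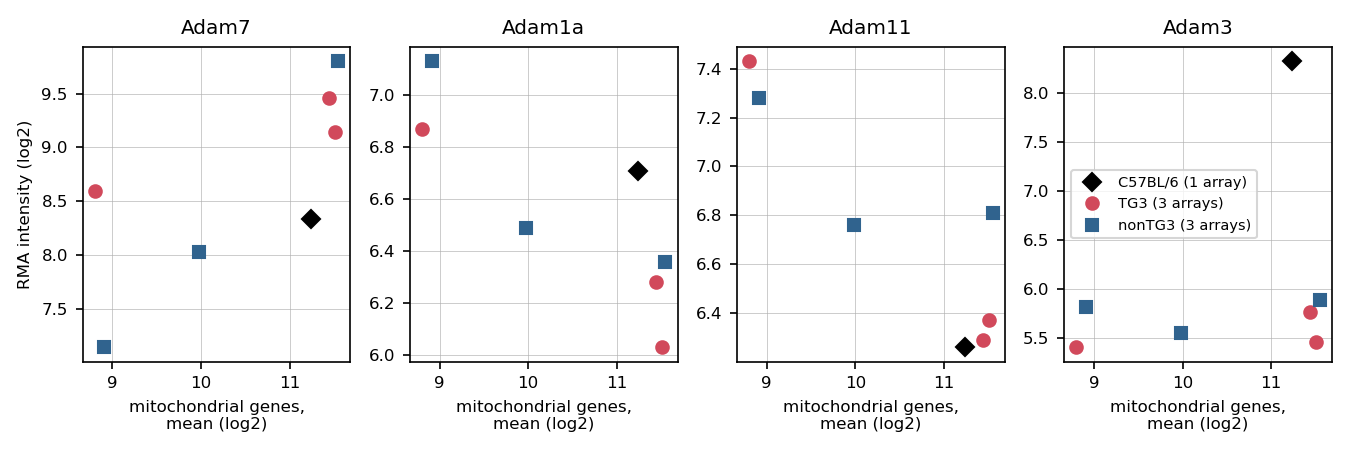
RMA intensity (log2, vertical axis) of Adam7, Adam1a, Adam11 and Adam3 on each array against the mean of 10 mitochondrially encoded genes (log2, horizontal axis); diamonds are C57BL/6, circles TG3 and squares nonTG3. The 2 arrays at the left (8.80 and 8.91) have the highest readings of Adam1a and Adam11, while Adam3 separates C57BL/6 at 8.32 from all others at 5.40 to 5.88.

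RNA was also read for genes listed for sperm ADAM maturation, among them genes of proteins that fold, pair and cut sperm ADAMs. Of 25 listed genes of sperm ADAM maturation, 23 were on the array with 1 symbol, 5 were called lower in the line and 0 higher, and their median difference was -0.279. Over all probe sets 2.85% were called lower, with a median of 0.037. Without both arrays of low mitochondrial RNA 0 of the 23 were called, as was 0 of all probe sets. Pmis2, needed for Adam3 to be carried on sperm, read 8.15 in C57BL/6, 4.73, 4.65 and 4.35 in TG3, and 4.72, 4.73 and 4.67 in nonTG3. Its line mean of 4.64 ± 0.15 (SD, n = 6) was 11.4-fold lower (-3.51, limma adjusted p = 0.00176), with no overlap between C57BL/6 and the line. Clgn (calmegin), the testis chaperone that pairs Adam1 proteins with Adam2, read 7.75 in C57BL/6, 5.58, 5.71 and 5.58 in TG3, and 5.58, 5.23 and 5.58 in nonTG3, 4.62-fold lower (-2.21, limma adjusted p = 0.00415). Lypd4, a membrane protein of sperm that Adam3 depends on, fell 5.48-fold, from 7.58 to 5.13 ± 0.18 (SD, n = 6, limma adjusted p = 0.00482). Pdilt, the testis disulfide isomerase that works with Calr3 on Adam3, fell 3.11-fold, from 5.72 to 4.09 ± 0.20 (SD, n = 6, limma adjusted p = 0.0183). Spam1, a sperm hyaluronidase, read 3.96 in C57BL/6 and was dim across the line at 1.92 ± 0.09 (SD, n = 6; limma adjusted p = 0.00244).

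The rest of that list did not pass. Canx (calnexin), the chaperone of all tissues, read 8.22 in C57BL/6 and averaged 8.32 ± 0.35 (SD, n = 6) across the line, and Pcsk4, the convertase of germ cells that cuts Adam2, read 7.38 and 7.72 ± 0.42. Cmtm2b, named here after its values were seen, read 7.83 in C57BL/6 and averaged 5.92 ± 0.33 across the line (-1.91) and narrowly missed the threshold (limma adjusted p = 0.0503). For TG3 against nonTG3, 0 of the 23 genes were called.

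**Figure D5:**
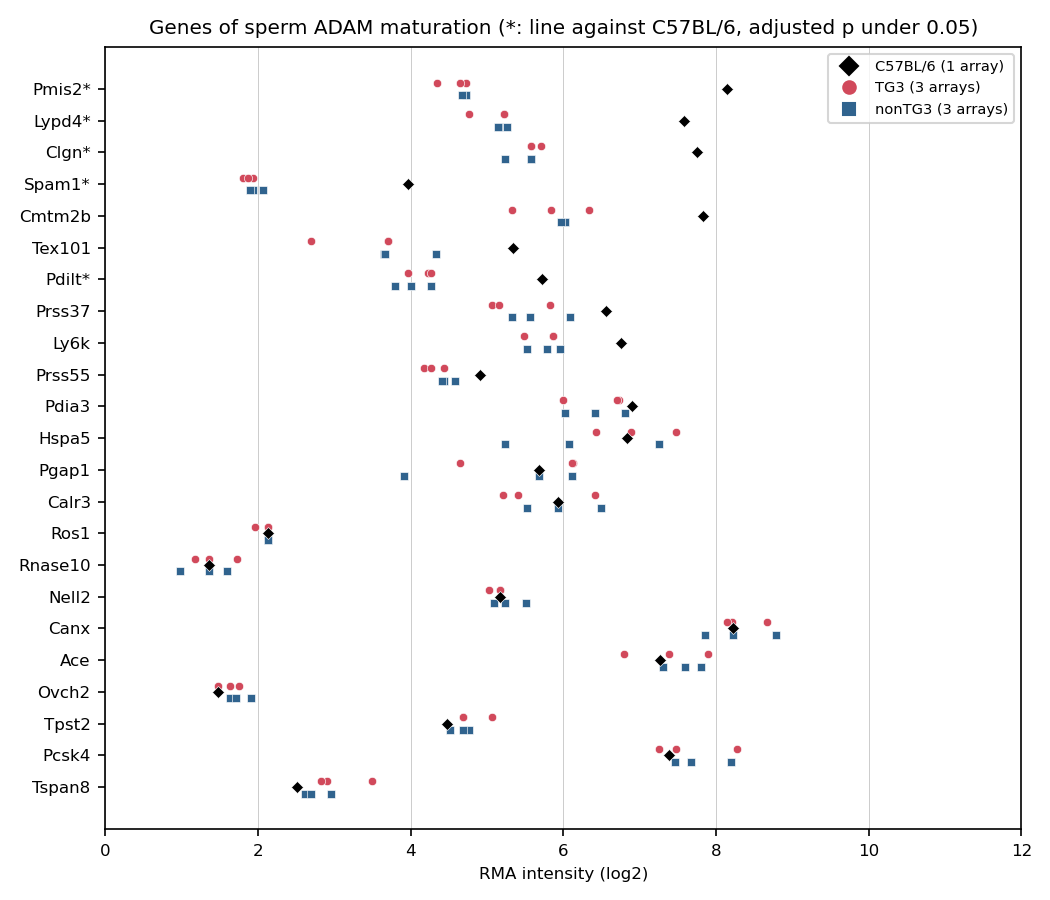
RMA intensity (log2, horizontal axis) of the 23 genes of sperm ADAM maturation on each array, ordered by the line minus C57BL/6 difference; diamonds are C57BL/6, circles TG3, squares nonTG3, and an asterisk marks an adjusted p under 0.05. Pmis2, at the top, reads 8.15 in C57BL/6 and 4.35 to 4.73 in the line, and Canx reads 8.22 and 7.86 to 8.79.

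The network of Adam10 and Adam17 showed no called gene in the line, where 3.02% of all probe sets were called in either direction. Counts of 0 in lists of this size are close to that share and do not set the lists apart. Of 26 partners and inhibitors, such as the maturation factors of the Rhbdf and tetraspanin families and the Timp inhibitors, 0 were called, with a median difference of 0.169. Pcsk7, a convertase, read 6.51 in C57BL/6 and averaged 7.09 ± 0.55 (SD, n = 6) across the line, and Pdia6 read 5.98 and 5.95 ± 0.60. Of 32 substrates 28 were measured and 0 were called (median 0.091). Notch1 read 6.33 in C57BL/6 and averaged 6.95 ± 0.26 (SD, n = 6) across the line (0.63, limma adjusted p = 0.448), and its ligand Jag1 read 6.17 and 6.66 ± 0.64. Cdh2 (N-cadherin), an Adam10 substrate named after its values were seen, read 4.68 in C57BL/6 and averaged 3.74 ± 0.17 across the line (-0.94, limma adjusted p = 0.0674), and it was called without TG3 replicate 3 (0.0187). Of 16 integrins and egg partners 0 were called (median 0.106): Cd81 read 5.47 in C57BL/6 and 5.34 ± 0.47 in the line, and Cd9 read 5.09 and 5.32 ± 0.17. For TG3 against nonTG3, 0 genes of these lists were called.

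Some marker lists of other cells were lower in the line beside the testis-restricted ADAMs, and others were not. Over all probe sets, 2.85% were called lower and 0.170% higher. The mean of 12 round spermatid markers, 2 of which the maturation list also holds, was 6.60 in C57BL/6 and 4.68 to 4.99 in the line, with 7 called lower (median difference -1.88). That of 11 spermatocyte markers was 5.45 and 3.81 to 4.33 (5 called lower, median -1.888), and that of 6 Leydig cell markers 4.09 and 2.53 to 2.74 (4 called lower, median -1.094). The mean of 11 Sertoli cell markers was 4.59 and 3.64 to 4.00, but the median difference was -0.134, and the 2 called lower were Cst9 (-4.72) and Defb36 (-2.23), while Sox9 differed by 0.20 and Amh by 0.15. Of the 11 condensing spermatid markers 2 were called lower (median -0.28). The mean of 12 spermatogonium markers was 4.17 and 3.81 to 4.20 (0 called), that of 18 epididymal markers 4.67 and 4.41 to 4.93 (1 lower, 1 higher), that of 14 leukocyte markers 3.54 and 3.38 to 3.92 (0 called), and that of 16 fibroblast, muscle and vessel markers 4.45 and 4.35 to 5.47 (0 called). The part of these cells in the ADAM differences was not tested.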

How the data were processed

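Sperm RNA of 7 pools was amplified and labelled with an Affymetrix whole-transcript kit, per the labels' protocols. The authors deposited log2 intensities made with RMA, using R 3.1.0, oligo and limma, per the submitters' processing notes. RMA corrects background, gives all arrays 1 distribution and reduces each probe set to 1 value, which can be exactly equal on several arrays. No filter, genome build or scan batch is given in the sources used here. Precision is limited by the number of arrays.

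Symbols came from the platform annotation (1 symbol for 23493 probe sets, several for 1801, none for 8310). All 35 members matched the RefSeq gene table of GRCm38.p6 by Entrez identifier, with 0 symbols changed. Promoters came from RefSeq's table of that assembly, and identity from a global alignment of the 250 bases. Protein sequences were not used here.

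A model of 3 group means was fitted to the 7 arrays with limma 3.58.1 in R 4.3.3 (4 residual and 1.65 prior degrees of freedom) and adjusted by Benjamini-Hochberg over 23493 probe sets. It was tested on simulated data. The line is the mean of the TG3 and nonTG3 means. Single members of TG3 and nonTG3 were also compared with a two-sided exact permutation test over arrays. Values on every array are given for each called member and for Adam2, Adam3, Adam5, Adam18, Adam10 and Adam17. Uncalled members are given by range, with up to 4 per class and 2 per list of the highest mean. A gene enters a list through its probe set of highest mean. The members, classes and lists were chosen with earlier results of these data known. Alternatives covered normalization, variance model, filters, threshold and arrays. Figures were drawn with matplotlib 3.10.9.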

Additional observations from a re-analysis of the deposited data

Results flagged for a closer look

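Each of the following readings lay far from the other 5 arrays of the line, with a gap to the nearest array, as a share of the range, above Dixon's 95% critical value for 6 values, which chance passes in about 1 of 20 groups. Of the 34 members with a range above 0, 5 passed, as did 21.8% of all probe sets with a range, where equal values on several arrays make the ratio large.

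Adam32, called lower in the line, read 5.61 in TG3 replicate 3, below the other 5 arrays at 6.15 to 6.40. Adam9, its neighbour, read 4.57 on the same array, below 4.88 to 5.05. Adam10 read 4.22 in nonTG3 replicate 1, above the others at 3.96 to 4.03. Adam29, dim throughout, read 1.57 in TG3 replicate 2, below 1.81 to 1.94. The brighter of the 2 probe sets of Adam19, also dim, read 2.67 in nonTG3 replicate 2, above 2.45 to 2.48.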

How the results depend on the processing

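The count of 12 members called lower in the line was 11 or 12 under the other normalizations, variance models, a threshold of 0.1 and all probe sets of the table. Among probe sets with over 4 distinct values it was 8 of 25, and that filter kept 9 of the 12 called members. The count was 6 of 16 among probe sets at or above the median mean, and 3 at a threshold of 0.01. It was 0 without both arrays of lowest mitochondrial RNA, and 6 to 8 without 1 array. TG3 against C57BL/6 (11 called) gave 6 above the median mean, 7 with over 4 distinct values, 2 at 0.01, 0 without both low mitochondrial arrays, 0 with only the groups compared, and 3 to 6 without 1 array. nonTG3 against C57BL/6 (7 called) gave 11 with quantile normalization repeated, 12 with cyclic loess, 12 with array weights, 12 at a threshold of 0.1, 3 at 0.01, 0 without both low mitochondrial arrays, 0 with only the groups compared, and 3 to 7 without 1 array. TG3 against nonTG3 stayed at 0 in all 20 settings. The replicate block gave 0 as well (smallest member adjusted p = 0.995). Same-numbered arrays had correlations of their deviations of -0.449, 0.016 and -0.403, so the numbers were not taken as pairs.

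Of 176 class medians recomputed, 19 moved beyond the spread between arrays. The testis-restricted median above the median mean was -1.726 (line), -1.751 (TG3) and -1.644 (nonTG3), all over 9 probe sets, and for the leukocyte, mesenchyme or brain class, over 1, it was 0.566, 0.439 and 0.692, and -0.253 for TG3 against nonTG3. For that class quantile normalization repeated gave 0.072, 0.104 and 0.065, cyclic loess gave 0.070, 0.095 and 0.064, and TG3 without both low mitochondrial arrays gave 0.104. Without 1 array it ran from 0.104 to 0.191 in TG3 and from 0.124 to 0.198 in nonTG3. The broad class of TG3 was 0.153 with quantile normalization repeated and 0.003 to 0.173 without 1 array, and for TG3 against nonTG3 -0.057 to 0.078. Sperm ADAM maturation (5 called) gave 0 without both low mitochondrial arrays and 4 to 6 without 1 array. Sheddase substrates (0 called) gave 1, Cdh2, with median centring, with cyclic loess, with array weights and at a threshold of 0.1, and 0 to 1 without 1 array. Of 656 values of single members, 164 lost their call and 4 reversed: TG3 minus nonTG3 for Adam5 was 0.03 with cyclic loess, 0.02 leaving out TG3 replicate 3, 0.01 leaving out nonTG3 replicate 3 (-0.08 to 0.02 without 1 array), and for Adam10 it was 0.03 leaving out nonTG3 replicate 1 (-0.09 to 0.03). The cause of these changes was not tested, except that fewer arrays or probe sets entered some fits. Readings under the lowest array median (3.52) limit 6 of the 12 calls.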

Other observations

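Probe sets naming both Adam34 (testase 4) and Gm5347 were no members. The first read 4.79 in C57BL/6, 4.32, 3.50 and 3.52 in TG3, and 4.51, 4.40 and 4.68 in nonTG3, a line minus C57BL/6 difference of -0.63 (limma adjusted p = 0.630 over all probe sets of the table). The second read 3.68 in C57BL/6, 4.82, 3.42 and 3.23 in TG3, and 3.26, 4.52 and 4.44 in nonTG3, a difference of 0.27 (limma adjusted p = 1.00). The 2 probe sets differed in sign, and their readings cannot be given to 1 of these genes.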
